A study of Mus musculus with 72 samples.

Results

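Ribosome biogenesis and nucleolar genes were followed in mouse early secondary ovarian follicles, the stage at which an oocyte is enclosed by layers of granulosa cells. The set held 40 genes, taken by symbol from a list of nucleolar and ribosome assembly factors, out of the 56691 rows of the count table, and each of the 40 symbols matched 1 row. The rule itself uses no measured value, but the list was chosen with earlier results of these data known. Follicles were cultured for 24 h with follicle-stimulating hormone (FSH), the pituitary glycoprotein that acts on granulosa cells, or without it. FSH21 is the hypoglycosylated form of the hormone and FSH24 the fully glycosylated form. The treated groups were FSH21 at 1 ng/ml, FSH24 at 1 ng/ml, FSH21 at 10 ng/ml and FSH24 at 10 ng/ml, with 3 libraries each. Untreated follicles gave 6 libraries. Every group shared the same medium, which held serum albumin, fetuin and insulin-transferrin-selenium but no added FSH in the untreated cultures. Libraries carry numbers in the labels: 1, 5 and 6 for 1 ng/ml and 3 of the untreated libraries, and 2, 3 and 4 for 10 ng/ml and the other 3 untreated libraries. Each FSH group was compared with the untreated libraries of its own numbers. The study's design speaks of 3 biological replicates per treatment. Animals, cultures, strain and age are not named in the labels, so each p-value reflects only how far these libraries spread, which may be in part technical.

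Ribosomes are built in the nucleolus. RNA polymerase I transcribes the ribosomal DNA into a long precursor, small nucleolar ribonucleoproteins (snoRNPs) guide its chemical modification, and separate sets of assembly factors cut and fold the parts that become the small and the large subunit. In a growing follicle the oocyte enlarges while granulosa cells divide, and both processes draw on newly made ribosomes. The 40 genes fall into 4 roles: 8 nucleolar hub proteins and factors of ribosomal DNA transcription, 9 core proteins and assembly factors of snoRNPs, 12 factors of small subunit processing and 11 factors of large subunit assembly.

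Library totals ran between 17.5 and 22.5 M expected counts, with a median of 21.4 M, and 18727 genes passed the filter on low counts. All 40 members passed it, with counts per library between 281 (Gar1) and 19402 (Ncl), so no comparison of a member rests on near-zero counts. CPM (counts per M library counts) were scaled between libraries by the trimmed mean of M values (TMM), and "called" below means a Benjamini-Hochberg adjusted p under 0.05 over all genes tested in edgeR's quasi-likelihood test. The oocyte and granulosa markers of the labelled tissue were present: all 12 oocyte and all 10 granulosa markers passed the filter. Summed red blood cell markers stayed at or below 0.825 CPM, and Hbb-bt, a haemoglobin gene, was listed at 0 in every library. The libraries hold RNA of whole follicles, so fewer cells of a type and less RNA per cell cannot be told apart.

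Per kilobase of annotated exon, Npm1, a histone chaperone that shuttles between nucleolus and cytoplasm, had the highest level of the 40 genes in untreated libraries. It stood at 218 CPM per kb in libraries 2, 3 and 4 and at 206 CPM per kb in libraries 1, 5 and 6. Ncl, which encodes nucleolin, came next with 79.1 and 82.7 CPM per kb in these untreated sets, followed by Mybbp1a with 38.3 and 44.2 CPM per kb. The median of the 40 genes was 17.8 CPM per kb in untreated libraries 2, 3 and 4 and 18.8 CPM per kb in untreated libraries 1, 5 and 6. Wdr12 was lowest, at 2.16 and 2.19 CPM per kb. On this measure the same genes led and closed the order in both untreated sets. The length is that of all annotated exons merged, 10188 bases for Ncl, 2665 for Npm1 and 11955 for Wdr12, so the order depends on it. Without division by length Ncl stood above Npm1, at 806 against 581 CPM in untreated libraries 2, 3 and 4.

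At 10 ng/ml, both hormone forms lowered a large part of this gene set and raised none of it. With FSH21, 19 of 40 members were called lower, which is 47.5%, against 4.21% of all genes tested that were called lower and 5.96% called higher. With FSH24, 16 of 40 members were called lower, which is 40%, against 3.3% of all genes tested called lower and 5.12% called higher. The shares are not matched for precision: the median standard error was 0.09 (FSH21) and 0.08 (FSH24) in members, against 0.14 over all genes tested. The falls of called members were moderate, between 13.3% and 38.4% with FSH21 and between 14.5% and 31.1% with FSH24. All 40 log2 fold changes were below 0 with FSH21, between -0.70 and -0.02 with a median of -0.25. With FSH24, 38 were below 0, between -0.54 and 0.03 with a median of -0.23. Over all genes tested, 50% of values were below 0 and the median was 0.00 in both comparisons. In 34 members every FSH21 library lay below every untreated library, against 12% of all genes tested, and in 26 members every FSH24 library did, against 10.7%.

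Averaged over the 40 genes, every library with 10 ng/ml lay below every untreated library of the same numbers. The mean log2 level relative to all 18 libraries was -0.25, -0.15 and -0.20 in FSH21 libraries 2, 3 and 4 and -0.25, -0.08 and -0.15 in the FSH24 libraries of the same numbers. It was 0.05, 0.10 and 0.10 in the untreated ones. At 1 ng/ml it was -0.02, -0.02 and 0.08 in FSH21 libraries 1, 5 and 6. These too lay below all untreated libraries of those numbers, at 0.18, 0.11 and 0.16. The FSH24 libraries at 1 ng/ml, at 0.08, 0.17 and 0.06, overlapped the untreated ones. Library 2 was the lowest of its 3 for 27 members with FSH21 and for 29 members with FSH24, and for 21 members in the untreated set. Without FSH21 library 2 the FSH21 count was 11 in place of 19, and without FSH24 library 2 the FSH24 count was 7 in place of 16.

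**Figure D1:**
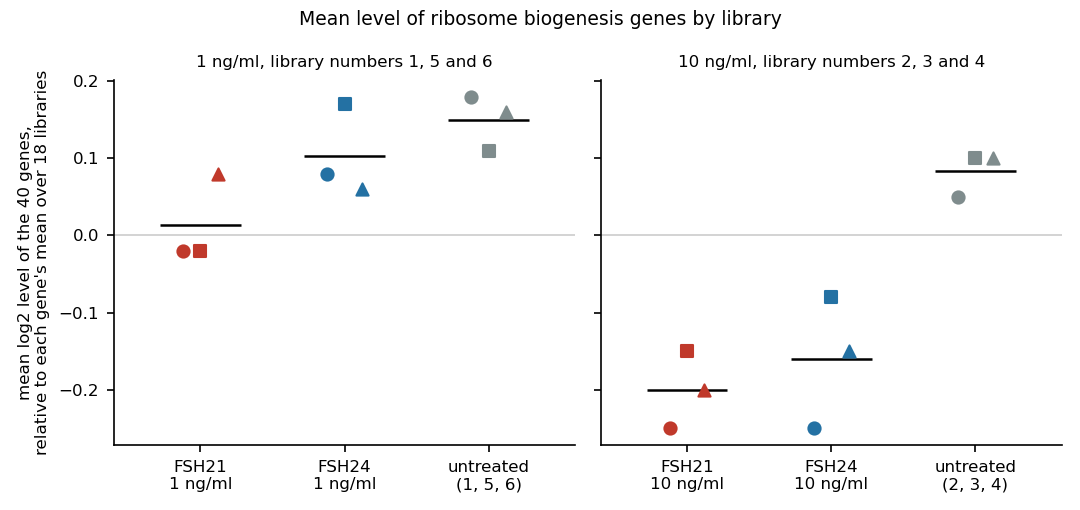
Mean log2 level of the 40 ribosome biogenesis genes in each of the 18 libraries (y axis, relative to each gene's own mean over all libraries), by group (x axis), with 1 point per library, a bar at the group mean and one marker shape per library number. The 6 libraries with 10 ng/ml lie between -0.25 and -0.08, below untreated libraries 2, 3 and 4 at 0.05 to 0.10, and the 1 ng/ml groups lie nearer to their untreated libraries.

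Summed over the 40 genes, the level was 3499 ± 151 CPM with FSH21 and 3612 ± 204 CPM with FSH24, against 4409 ± 129 CPM in untreated libraries (SD, n = 3 each). The ranges did not overlap: 3333 to 3628 CPM with FSH21 and 3397 to 3802 CPM with FSH24, against 4264 to 4511 CPM untreated. In 24 of the 40 members all 6 libraries with 10 ng/ml, of both forms, lay below all 3 untreated libraries, against 7.24% of all genes tested.

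**Figure D2:**
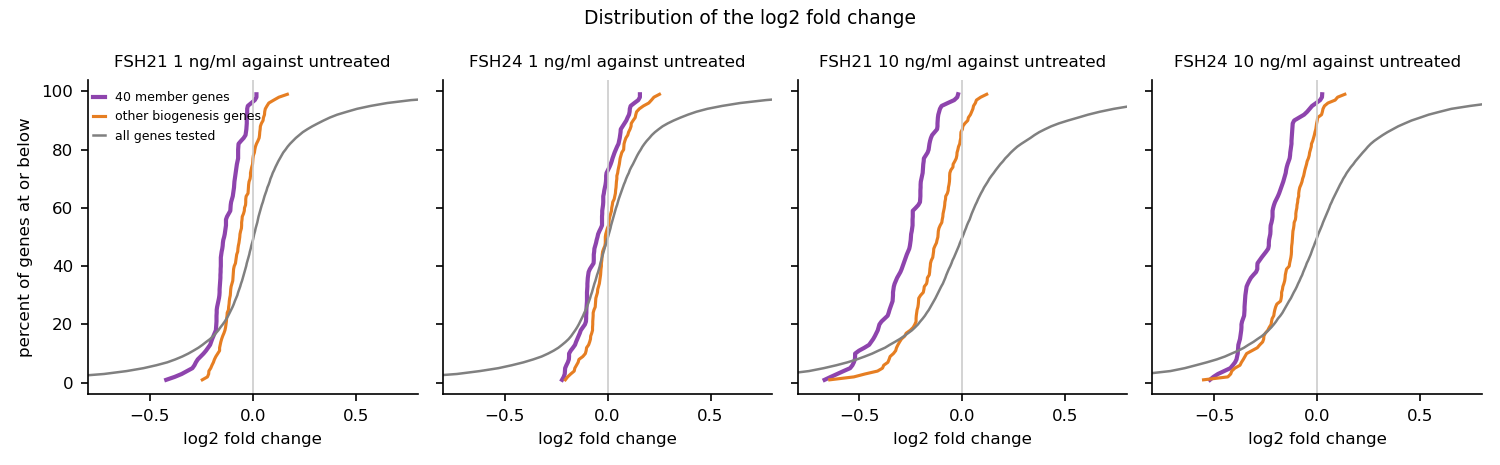
Cumulative distribution of the log2 fold change (x axis) as percent of genes at or below it (y axis) for the 40 member genes, the other ribosome biogenesis genes and all 18727 genes tested, with 1 panel per FSH group against its untreated libraries. At 10 ng/ml the member curve lies left of the other curves over most of its range, with medians of -0.25 (FSH21) and -0.23 (FSH24) against 0.00 for all genes, and at 1 ng/ml the medians are -0.14 (FSH21) and -0.05 (FSH24).

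Among nucleolar hub and ribosomal DNA transcription genes, 6 of 8 were called lower with FSH21 and 5 of 8 with FSH24, with median log2 fold changes of -0.36 and -0.33. Polr1a (ENSMUSG00000049553, chr6:71909053-71984935, GRCm38, plus strand) encodes the largest subunit of RNA polymerase I. Its level was 228, 244 and 239 CPM in FSH21 libraries 2, 3 and 4 and 277, 274 and 314 CPM in FSH24 libraries, against 329, 405 and 421 CPM in untreated libraries. All 6 treated libraries lay below all untreated ones, and every FSH21 library lay below every FSH24 library. Polr1a fell by 38.4% with FSH21 (log2 fold change -0.70 ± 0.09 SE, adjusted p = 7.1e-05), and by 25.2% with FSH24 (-0.42 ± 0.09, adjusted p = 0.00753).

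Polr1b, the partner subunit with which Polr1a forms the catalytic centre (chr2:129100995-129126594), stood at 29.8, 39.4 and 29.4 CPM with FSH21 and 30.5, 36.6 and 40.6 CPM with FSH24, against 44.4, 53.6 and 53.8 CPM untreated. The FSH groups overlapped each other and lay below the untreated libraries. The log2 fold change was -0.62 ± 0.13 with FSH21 (adjusted p = 0.00319) and -0.49 ± 0.12 with FSH24 (adjusted p = 0.0177). Npm1 (chr11:33152287-33163206, minus strand) stood at 365, 424 and 409 CPM with FSH21 and 373, 439 and 389 CPM with FSH24, against 585, 562 and 596 CPM untreated. The untreated libraries of Npm1 lay close together and well above both FSH groups. Its change was the same with both forms to 2 decimals, -0.54 ± 0.09, with adjusted p-values of 0.000355 for FSH21 and 0.000526 for FSH24. Npm1 has processed pseudogenes, so its counts may hold or lack reads shared with those copies.

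Mybbp1a, a Myb-binding nucleolar protein with roles in rRNA synthesis and processing (chr11:72441355-72451768), stood at 159, 181 and 164 CPM with FSH21 and 149, 187 and 180 CPM with FSH24, against 210, 223 and 234 CPM untreated. Again neither FSH group reached the untreated libraries. The log2 fold change was -0.40 ± 0.08 (adjusted p = 0.003) and -0.37 ± 0.08 (adjusted p = 0.00671) for FSH21 and FSH24. Ncl, which binds ribosomal DNA chromatin and the rRNA precursor (chr1:86344719-86359400), stood at 599, 673 and 668 CPM with FSH21 and 630, 701 and 644 CPM with FSH24, against 790, 810 and 819 CPM untreated. The change of Ncl was -0.32 ± 0.07 (adjusted p = 0.00652) with FSH21 and -0.29 ± 0.07 (adjusted p = 0.0142) with FSH24. Tcof1, which encodes treacle, a factor that links RNA polymerase I to its DNA, fell with FSH21 (-0.21 ± 0.06, adjusted p = 0.0423), while its value with FSH24 did not pass (-0.13 ± 0.06, adjusted p = 0.23). The RNA helicase gene Ddx21 (-0.25 and -0.13) and Polr1c, a subunit shared by RNA polymerases I and III (-0.16 and -0.16), did not pass with either form.

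Promoters of 5 members called lower with both forms are shown as examples that cover all 4 roles. RefSeq promoter sequence on GRCm38.p6, from 250 bases before to 50 bases after the start, was found for 33 of the 40 members. Each is printed on its own strand, 5′ to 3′, with matches to the following motifs in capitals: the E-box CACGTG, bound by Myc and related factors, and the ETS motif CCGGAAG, both searched on both strands. The promoters were those of Polr1a (chr6:71908803-71909102, plus strand), Mybbp1a (chr11:72441077-72441376, plus), Gar1 (chr3:129831347-129831646, minus), Nat10 (chr2:103761221-103761520, minus) and Nop2 (chr6:125131633-125131932, plus).
Polr1a: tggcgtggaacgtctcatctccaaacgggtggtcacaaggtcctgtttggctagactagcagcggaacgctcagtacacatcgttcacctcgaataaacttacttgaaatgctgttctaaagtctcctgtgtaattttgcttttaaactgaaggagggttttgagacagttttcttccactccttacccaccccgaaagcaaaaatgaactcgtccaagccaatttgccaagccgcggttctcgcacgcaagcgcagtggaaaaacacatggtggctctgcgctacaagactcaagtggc
Mybbp1a: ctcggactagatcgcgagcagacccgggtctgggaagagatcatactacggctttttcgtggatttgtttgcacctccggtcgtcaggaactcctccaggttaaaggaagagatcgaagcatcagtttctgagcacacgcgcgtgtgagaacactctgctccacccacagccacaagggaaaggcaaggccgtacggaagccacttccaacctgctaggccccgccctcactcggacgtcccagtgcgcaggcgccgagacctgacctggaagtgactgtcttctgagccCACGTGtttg
Gar1: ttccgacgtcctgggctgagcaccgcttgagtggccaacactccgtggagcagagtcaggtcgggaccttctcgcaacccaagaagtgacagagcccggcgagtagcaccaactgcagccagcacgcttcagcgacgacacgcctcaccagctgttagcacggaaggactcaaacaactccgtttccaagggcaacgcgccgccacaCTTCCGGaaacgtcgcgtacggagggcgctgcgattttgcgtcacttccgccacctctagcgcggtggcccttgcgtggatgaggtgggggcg
Nat10: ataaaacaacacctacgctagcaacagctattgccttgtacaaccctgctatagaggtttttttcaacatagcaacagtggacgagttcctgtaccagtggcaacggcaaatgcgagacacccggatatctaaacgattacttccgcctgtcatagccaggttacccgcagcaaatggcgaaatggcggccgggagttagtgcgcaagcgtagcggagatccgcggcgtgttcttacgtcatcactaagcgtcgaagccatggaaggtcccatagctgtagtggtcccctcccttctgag
Nop2: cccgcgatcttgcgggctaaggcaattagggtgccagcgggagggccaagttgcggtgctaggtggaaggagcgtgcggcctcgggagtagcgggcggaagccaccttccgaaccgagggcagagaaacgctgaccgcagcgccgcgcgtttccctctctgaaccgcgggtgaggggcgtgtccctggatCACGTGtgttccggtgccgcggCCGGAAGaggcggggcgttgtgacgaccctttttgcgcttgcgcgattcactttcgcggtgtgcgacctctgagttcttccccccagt
With the start as position 0, the E-box began at position 40 in Mybbp1a and at -60 in Nop2, and the ETS motif began at -43 in Gar1 and at -38 in Nop2. The windows of Polr1a and Nat10 held neither. Over all 33 promoters, 6 held an E-box (18.2%, against 7.24% of all 27025 promoters and 9.83% of the 12619 promoters of genes tested). The ETS motif was in 10 of 33 (30.3%, against 9.12% of all promoters and 16.1% of those of genes tested). A further motif searched, that of the factor NRF1, was in 0 of 33, against 0.977% of all promoters and 1.8% of those of genes tested. Members called with both forms held the E-box in 2 of 12 promoters and the ETS motif in 3 of 12, while members called with neither form held them in 3 of 16 and 6 of 16. The 5 promoters shown include Mybbp1a, Nop2 and Gar1, so these motifs are more frequent among them than among the 12. Those of Polr1b, Ncl, Gnl3 and Rrp1b, also called with both forms, held neither motif and are not shown. A match describes letters and not binding, and the median GC content was 58% in members and 60% in genes tested.

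Among snoRNP genes, 6 of 9 were called lower with FSH21 and 3 of 9 with FSH24, with medians of -0.25 and -0.24. SnoRNPs are of a box C/D class, which methylates rRNA, and a box H/ACA class, which turns uridine into pseudouridine. Gar1, a core protein of the H/ACA class (chr3:129824912-129831396), stood at 16.9, 15.8 and 13.5 CPM with FSH21 and 18, 18.3 and 16.5 CPM with FSH24, against 21.5, 22.9 and 21.7 CPM untreated. All treated libraries lay below the untreated ones. Gar1 fell by 30.3% with FSH21 (log2 fold change -0.52 ± 0.09, adjusted p = 0.00108) and by 20.1% with FSH24 (-0.32 ± 0.09, adjusted p = 0.0359).

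Dkc1, the pseudouridine synthase of the same class, which is on the X chromosome, stood at 68.3, 77.3 and 77.4 CPM with FSH21 and 74.2, 69.8 and 68.6 CPM with FSH24, against 88.9, 86.2 and 94.4 CPM untreated. The FSH groups overlapped each other and not the untreated group. The log2 fold change was -0.27 ± 0.07 with FSH21 (adjusted p = 0.0128) and -0.34 ± 0.07 with FSH24 (adjusted p = 0.00312). Fbl, which encodes fibrillarin, the methyltransferase of the C/D class, stood at 55.7, 69.2 and 59.2 CPM with FSH21 and 54.0, 73.5 and 62.4 CPM with FSH24, against 85.7, 81.8 and 80.7 CPM untreated. Library 3 was the highest of each FSH group for Fbl, still below the untreated libraries. Its change was -0.43 ± 0.11 with FSH21 (adjusted p = 0.0155) and -0.39 ± 0.11 with FSH24 (adjusted p = 0.0332). A Fbl pseudogene is listed in the table, so reads of the gene and of that copy may be shared.

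Nop10, a small H/ACA core protein, stood at 21.4, 20.6 and 22.2 CPM with FSH21 and 18.6, 26.4 and 22.1 CPM with FSH24, against 26.7, 27.3 and 31.3 CPM untreated. The FSH24 libraries of Nop10 were more spread and came close to the untreated ones. It fell with FSH21 (-0.41 ± 0.12, adjusted p = 0.0325), and its value with FSH24 did not pass (-0.35 ± 0.12, adjusted p = 0.0816). Nop56 and Nop58, the scaffold proteins of the C/D class, showed the same split. Nop56 had -0.25 ± 0.08 with FSH21 (adjusted p = 0.0425) and -0.24 ± 0.08 with FSH24 (adjusted p = 0.0619), and Nop58 had -0.24 ± 0.07 (adjusted p = 0.0379) and -0.22 ± 0.07 (adjusted p = 0.0722). The differences between the forms in these 3 genes were not called, with 95% intervals of FSH21 over FSH24 of -0.31 to 0.19 for Nop10, -0.17 to 0.15 for Nop56 and -0.18 to 0.13 for Nop58. Rrp9, Nhp2 and Nolc1 passed with neither form, at -0.24, -0.12 and -0.19 with FSH21 and -0.15, -0.22 and -0.15 with FSH24.

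Among small subunit processing genes, 1 of 12 was called lower with each form (8.33%, against 4.21% and 3.3% of all genes tested). It was Nat10 in both, with group medians of -0.19 for FSH21 and -0.15 for FSH24. All 12 values were below 0 with FSH21 and 11 of 12 with FSH24. An unadjusted p under 0.05 was found for 7 (FSH21) and 6 (FSH24), all of them lower. Over all 18727 genes tested, 1807 and 1644 were lower at that threshold. Nat10 (chr2:103721256-103761270, minus strand) encodes an acetyltransferase that acetylates cytidines in small subunit rRNA. It stood at 45.7, 45.9 and 46.4 CPM with FSH21 and 44.3, 44.5 and 46.4 CPM with FSH24, against 60.9, 57.7 and 58.9 CPM untreated. The spread within each group was small beside the gap. Nat10 fell by 22.2% with FSH21 (-0.36 ± 0.06, adjusted p = 0.000556) and by 23.8% with FSH24 (-0.39 ± 0.06, adjusted p = 0.000372).

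The other small subunit genes did not pass. The UtpA complex genes, whose products bind the precursor first, had log2 fold changes with FSH21 and FSH24 of -0.24 and -0.23 for Utp15, -0.19 and -0.18 for Wdr43, -0.16 and -0.21 for Wdr75, -0.12 and -0.13 for Utp4, and -0.10 and -0.03 for Heatr1. The late factors Rrp12, Nob1 (the endonuclease that makes the end of small subunit rRNA) and Bysl had -0.28, -0.20 and -0.15 with FSH21 and -0.19, -0.26 and -0.06 with FSH24. Nop14 and Ddx10, of the processome, had -0.20 and -0.19 with FSH21 and -0.12 and -0.12 with FSH24. Utp20 was nearest to 0 in this role, at 91.9, 94.4 and 86.9 CPM with FSH21 and 86.5, 93.7 and 101 CPM with FSH24, against 82.2, 106 and 88.7 CPM untreated. Those ranges overlap fully, and the 95% interval of its change was -0.20 to 0.17 with FSH21 and -0.16 to 0.21 with FSH24. Nearest to the threshold were Utp15 and Rrp12 with FSH21, both at adjusted p = 0.0528, and Wdr75 with FSH24 at adjusted p = 0.0575.

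Among large subunit assembly genes, 6 of 11 were called lower with FSH21 and 7 of 11 with FSH24, with medians of -0.33 and -0.35. Gnl3 (chr14:31012433-31019152, minus strand) encodes nucleostemin, a nucleolar GTPase abundant in dividing and stem cells. It stood at 41.3, 42.3 and 45.5 CPM with FSH21 and 45.3, 52.2 and 45.5 CPM with FSH24, against 59.4, 64.5 and 61.5 CPM untreated. Both FSH groups lay below the untreated libraries. Gnl3 fell by 30.3% with FSH21 (-0.52 ± 0.09, adjusted p = 0.000503) and by 22.8% with FSH24 (-0.37 ± 0.09, adjusted p = 0.00876).

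Wdr12, a member of the PeBoW complex that matures large subunit rRNA (chr1:60069785-60098645), stood at 19.1, 19.1 and 18.2 CPM with FSH21 and 18.9, 20.8 and 20.4 CPM with FSH24, against 26.9, 26.1 and 24.5 CPM untreated. Its change was -0.45 ± 0.09 (adjusted p = 0.00309) with FSH21 and -0.37 ± 0.09 (adjusted p = 0.0161) with FSH24. Pes1 fell with FSH24 (-0.23 ± 0.07, adjusted p = 0.0405) and had -0.20 ± 0.07 with FSH21 (adjusted p = 0.0597), while Bop1, the remaining protein of the complex, stood at 43.9, 46.4 and 42.0 CPM with FSH21 and 39.8, 51.4 and 45.9 CPM with FSH24, against 44.3, 43.0 and 47.7 CPM untreated. The groups of Bop1 overlapped, and the 95% interval of its change was -0.23 to 0.17 with FSH21 and -0.18 to 0.22 with FSH24.

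Rrp1b, a nucleolar protein of large subunit precursors (chr17:32036100-32062865), stood at 40.9, 42.2 and 41.6 CPM with FSH21 and 37.6, 44.4 and 42.4 CPM with FSH24, against 50.8, 55.2 and 53.1 CPM untreated. No treated library reached an untreated one, and the change was -0.35 ± 0.07 with both forms (adjusted p = 0.00248 for FSH21 and 0.00289 for FSH24). Ppan, an assembly factor of the Brix family (chr9:20888175-20892178), stood at 55.0, 57.6 and 56.7 CPM with FSH21 and 55.6, 62.2 and 55.1 CPM with FSH24, against 67.7, 65.1 and 69.5 CPM untreated. Its change was small and tight, -0.26 ± 0.06 (adjusted p = 0.00659) with FSH21 and -0.23 ± 0.06 (adjusted p = 0.018) with FSH24.

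Nop2, which encodes an rRNA cytosine methyltransferase, also fell with both forms (-0.34 ± 0.09, adjusted p = 0.0213 with FSH21, and -0.35 ± 0.09, adjusted p = 0.0183 with FSH24). Noc2l fell with FSH21 (-0.34 ± 0.10, adjusted p = 0.0453), and Rrs1 fell with FSH24 (-0.35 ± 0.10, adjusted p = 0.0434). The values of the other form were -0.29 for Noc2l (FSH24, adjusted p = 0.0982) and -0.30 for Rrs1 (FSH21, adjusted p = 0.0819). Nop16 had the FSH24 value furthest from 0 in this role, -0.38 ± 0.12, without passing (adjusted p = 0.0602), and Gnl2, a GTPase related to Gnl3, had -0.12 with each form.

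**Figure D3:**
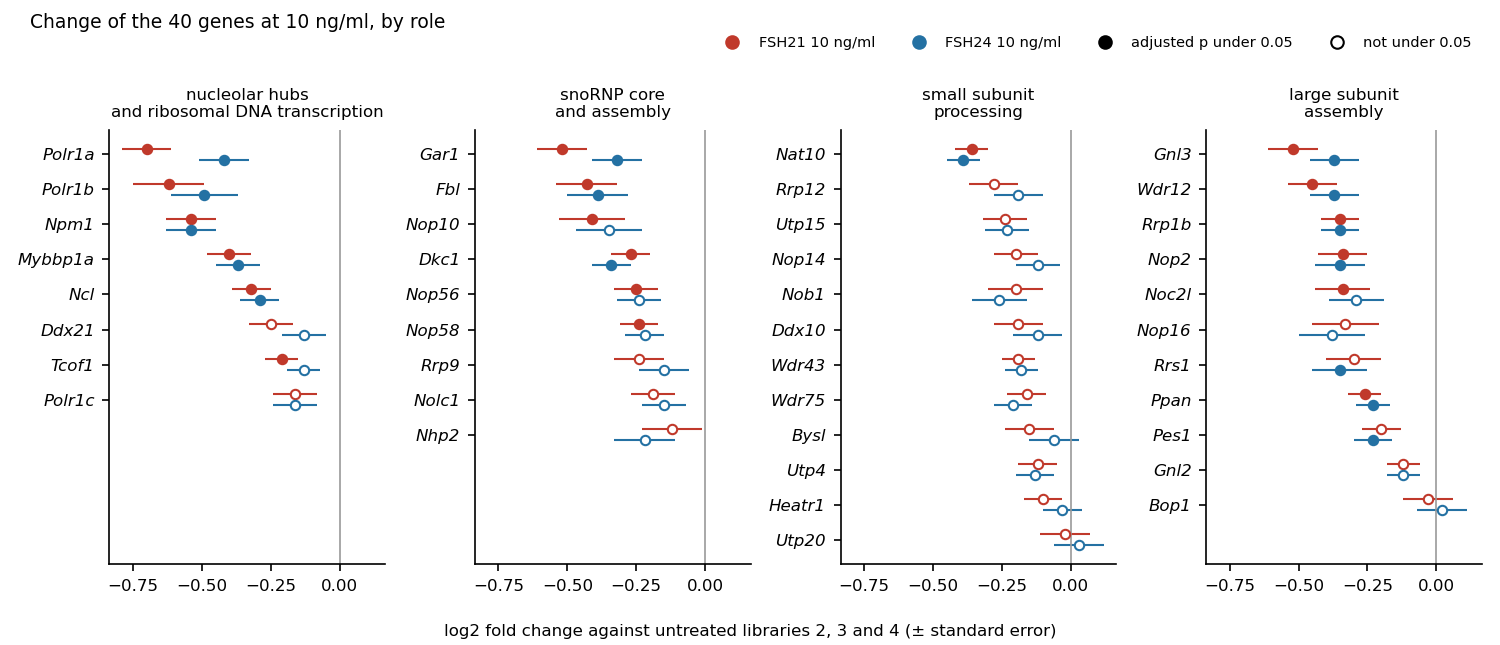
Log2 fold change (x axis, point with ± standard error) of each of the 40 genes at 10 ng/ml against untreated libraries 2, 3 and 4, by role, with FSH21 drawn above FSH24 and filled points for adjusted p under 0.05. Filled points are frequent in the hub, snoRNP and large subunit panels and are limited to Nat10 in the small subunit panel.

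The calls rested unequally on single libraries. With FSH21, 11 calls held without any 1 of the 6 libraries compared: Ppan, Wdr12, Ncl, Nat10, Polr1b, Gar1, Mybbp1a, Gnl3, Polr1a, Npm1 and Rrp1b. The other 8 were all lost without FSH21 library 2, and some also without other libraries, with the highest adjusted p over these fits between 0.0644 (Dkc1) and 0.17 (Noc2l). With FSH24, 7 calls held: Nat10, Dkc1, Mybbp1a, Gnl3, Polr1a, Npm1 and Rrp1b. The other 9 were all lost without FSH24 library 2, with the highest adjusted p between 0.0518 (Ncl) and 0.153 (Rrs1). The call of Gar1 with FSH24 was lost without any 1 of the 6 libraries.

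**Figure D4:**
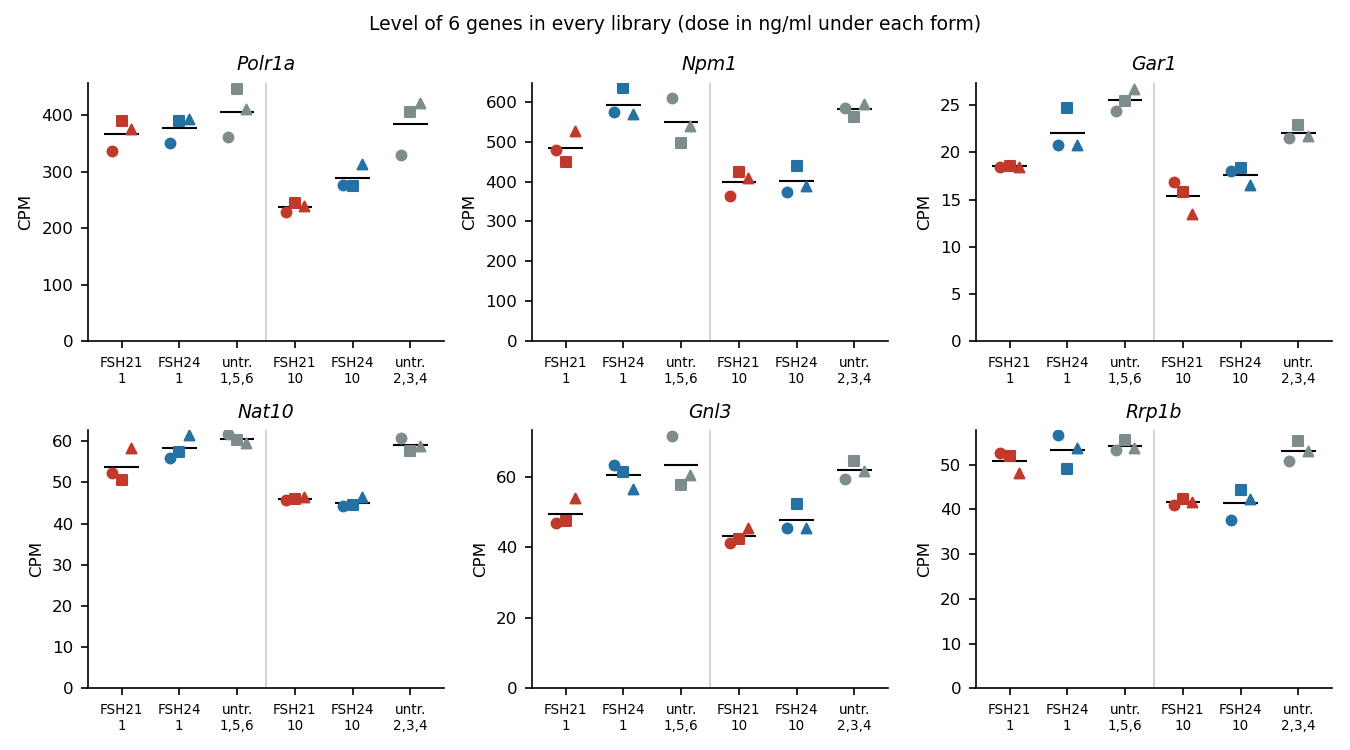
CPM (y axis, from 0) of Polr1a, Npm1, Gar1, Nat10, Gnl3 and Rrp1b in every library (points, with a bar at the group mean and one marker shape per library number), by group (x axis). In each of the 6 genes, all libraries with 10 ng/ml of either form lie below untreated libraries 2, 3 and 4; for Polr1a these are 228 to 314 CPM against 329 to 421 CPM.

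FSH21 and FSH24 share the untreated libraries 2, 3 and 4, so their agreement is in part built in, and the forms were compared directly. Of the 21 members called with either form, 14 were called with both, 5 with FSH21 alone (Tcof1, Nop56, Nop58, Nop10 and Noc2l) and 2 with FSH24 alone (Pes1 and Rrs1). In the direct comparison of FSH21 with FSH24 at 10 ng/ml, 0 of 40 members were called, as were 0% of all genes tested, 1 member had an unadjusted p under 0.05, against 2.19% of all genes tested, and DESeq2 called 0. The log2 fold change of FSH21 over FSH24 had a median of -0.03 and a range of -0.28 to 0.10, and 28 of 40 values were below 0, against 50.7% of all genes tested. The smallest p belonged to Polr1a (-0.28 ± 0.09, 95% interval -0.48 to -0.08, unadjusted p = 0.00758, adjusted p = 1), then Gar1 (-0.20, interval -0.40 to 0.00) and Gnl3 (-0.15, interval -0.33 to 0.03). A difference between the forms in these genes was not detectable with 3 libraries each.

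At 1 ng/ml no member was called with either form. With FSH21 at 1 ng/ml, 0 of 40 were called, against 0.0374% of all genes tested called lower and 0.0908% called higher, and 10 members had an unadjusted p under 0.05, all of them lower, against 7.32% of all genes tested in either direction. DESeq2 called 2 members in that comparison, against 42 lower and 61 higher of all 18727 genes tested. The median log2 fold change was -0.14, 38 of 40 values were below 0, against 48.9% of all genes tested, and in 16 members every FSH21 library lay below every untreated one, against 6.23% of all genes tested. With FSH24 at 1 ng/ml, 0 of 40 were called, as were 0% of all genes tested, 3 members had an unadjusted p under 0.05, and DESeq2 called 0. Of all genes tested, 5.98% had an unadjusted p under 0.05, a share near that of the members. Its median was -0.05, 29 values were below 0, against 49.6% of all genes tested, and 7 members lay lower without overlap, against 5.02%.

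Gar1 and Gnl3 had the smallest p with FSH21 at 1 ng/ml. Gar1 stood at 18.5, 18.6 and 18.5 CPM in FSH21 libraries 1, 5 and 6 and 20.8, 24.7 and 20.8 CPM in FSH24 libraries, against 24.4, 25.5 and 26.7 CPM in untreated libraries. The FSH21 libraries lay well below the untreated ones, and FSH24 library 5 lay just inside the untreated range. The log2 fold change of Gar1 was -0.46 ± 0.09 with FSH21 (adjusted p = 0.0613) and -0.21 ± 0.09 with FSH24 (adjusted p = 0.815). Gnl3 stood at 46.8, 47.4 and 53.9 CPM with FSH21 and 63.3, 61.2 and 56.5 CPM with FSH24, against 71.6, 57.5 and 60.5 CPM untreated. For Gnl3 only the FSH21 libraries stood apart from the untreated ones, with a log2 fold change of -0.36 ± 0.09 (adjusted p = 0.142), and the FSH24 value was -0.07 ± 0.08. Mybbp1a (-0.27, adjusted p = 0.318), Tcof1 (-0.19, adjusted p = 0.386) and Nat10 (-0.18, adjusted p = 0.434) followed with FSH21.

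FSH21 set directly against FSH24 at 1 ng/ml gave 0 called members, against 0.0107% of all genes tested called in either direction. Of the 40, 8 had an unadjusted p under 0.05, all of them lower, against 9.45% of all genes tested in either direction. DESeq2 called 1 of the 40, against 112 lower and 78 higher of all 18727 genes tested. The median log2 fold change of FSH21 over FSH24 was -0.08, and 33 of 40 values were below 0, against 9210 of the 18727 genes tested. The smallest p-values belonged to Gnl3 (-0.29, 95% interval -0.47 to -0.11, adjusted p = 0.262), Npm1 (-0.29, interval -0.47 to -0.11, adjusted p = 0.262) and Gar1 (-0.25, interval -0.45 to -0.06, adjusted p = 0.401).

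The effect at 10 ng/ml was set against that at 1 ng/ml within each form, each relative to its own untreated libraries. For FSH24, 2 members, Npm1 and Nat10, were called in this test, with a lower log2 fold change at 10 than at 1 ng/ml. They are 5.00% of 40, against 1.24% of all genes tested called lower and 1.21% called higher in this comparison. An unadjusted p under 0.05 was found for 17 members, against 14.9% of all genes tested. Npm1 stood at 574, 634 and 570 CPM in FSH24 libraries 1, 5 and 6 at 1 ng/ml, against 611, 498 and 540 CPM in untreated libraries of those numbers. Those groups overlapped, unlike the 10 ng/ml groups given above. The log2 fold change of Npm1 was 0.11 ± 0.09 with the low dose and -0.54 ± 0.09 with the high dose, a difference of -0.65 ± 0.12 (adjusted p = 0.00776). Nat10 stood at 56.0, 57.5 and 61.6 CPM with FSH24 at 1 ng/ml, against 61.8, 60.3 and 59.6 CPM untreated, again overlapping. Its change was -0.05 ± 0.06 with the low dose and -0.39 ± 0.06 with the high dose, a difference of -0.34 ± 0.08 (adjusted p = 0.0405). The Npm1 call held without any 1 of the 12 libraries, with adjusted p up to 0.0233, while the Nat10 call was lost without any of 9 libraries, with adjusted p up to 0.103.

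For FSH21, 0 members were called in the same test, against 0.171% of all genes tested called lower and 0.101% called higher. An unadjusted p under 0.05 was found for 5 members, against 7.01% of all genes tested. DESeq2 called 1 member, against 86 lower and 73 higher of all genes tested. The smallest p-values were those of Polr1a (difference -0.56 ± 0.13, adjusted p = 0.0971), Npm1 (-0.36 ± 0.12, adjusted p = 0.403) and Rrp1b (-0.26 ± 0.10, adjusted p = 0.527). Over the 40 genes the median difference between doses was -0.13 for FSH21 and -0.23 for FSH24. The difference was below 0 in 40 members for FSH21 and in 35 for FSH24, against 9291 and 9270 of the 18727 genes tested. Whether the dose difference itself differed between the forms was not tested. Untreated libraries 2, 3 and 4 set against untreated libraries 1, 5 and 6 gave 0 called members, as 0% of all genes tested, and 0 called by DESeq2. An unadjusted p under 0.05 was found for 7 members, all of them lower, against 5.45% of all genes tested in either direction. The median was -0.06, and 32 of 40 values were below 0, against 9573 of the 18727 genes tested. Tcof1 (-0.19 ± 0.06) and Heatr1 (-0.20 ± 0.07) had the smallest p there, both at adjusted p = 0.901.

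**Figure D5:**
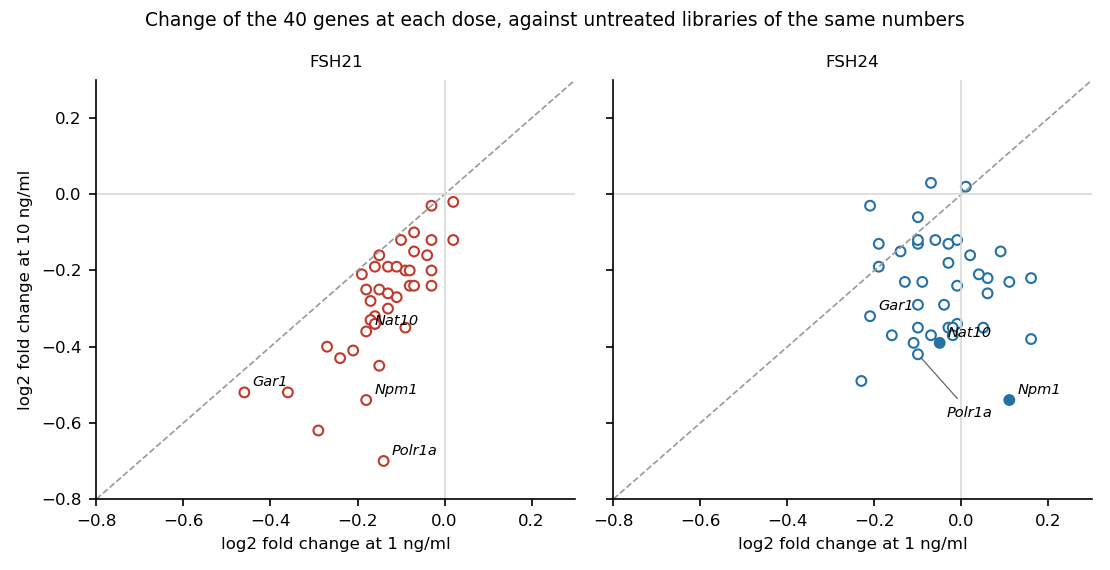
Log2 fold change of the 40 genes at 10 ng/ml (y axis) and at 1 ng/ml (x axis), each against untreated libraries of the same numbers, with a dashed line of equal change; filled points had a called difference between doses. For FSH24 the filled points are Npm1 (0.11 with the low dose and -0.54 with the high dose) and Nat10 (-0.05 and -0.39), and for FSH21 no point is filled.

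Another 126 genes of ribosome biogenesis that are not among the 40 were examined as a wider list, and all of them passed the count filter. This list too was chosen with earlier results of these data known. With FSH21 at 10 ng/ml, 22 fell (17.5%) and 1 rose, with a median of -0.12, and with FSH24 at 10 ng/ml, 15 fell (11.9%) and 1 rose, with a median of -0.12. None was called at 1 ng/ml with either form, where 12 (FSH21, all lower) and 9 (FSH24, 5 lower and 4 higher) had an unadjusted p under 0.05, against 7.32% and 5.98% of all genes tested. The share called lower thus lay between that of the 40 members and that of all genes tested. Of the small subunit processing genes of this wider list, 14.6% (FSH21) and 10.4% (FSH24) were called lower at 10 ng/ml. Of its large subunit assembly genes, 18% and 12% were. Taf1d, a subunit of the selectivity factor that recruits RNA polymerase I, fell by 37.1% with FSH21 (-0.67 ± 0.14, adjusted p = 0.00482) and by 33.5% with FSH24 (-0.59 ± 0.14, adjusted p = 0.0135). Rcl1 and Utp14a, of the small subunit processome, fell with both forms (-0.57 and -0.49 with FSH21, -0.44 and -0.42 with FSH24), as did Nop53, a large subunit factor (-0.47 with FSH21 and -0.43 with FSH24).

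Exosc6, an exosome subunit, was called lower with FSH21 on scattered low counts. It had 3, 0 and 0 counts in FSH21 libraries 2, 3 and 4 and 26, 0 and 0 counts in FSH24 libraries, against 84, 61 and 99 counts in untreated libraries. At 1 ng/ml its counts ran from 26 to 48 with FSH21 and from 23 to 83 with FSH24, against 9 to 46 untreated. Gnl3l, a GTPase related to Gnl3, was the one gene of the wider list that rose, by 0.27 ± 0.06 with FSH21 (adjusted p = 0.00913) and 0.22 ± 0.06 with FSH24 (adjusted p = 0.0411). For FSH24 3 genes of this list, Polr1d, Nsa2 and Nop53, were called as lower at 10 than at 1 ng/ml in the test of the dose difference, with differences of -0.54, -0.58 and -0.51. They are 2.38% of the list, against 1.24% of all genes tested called lower.

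Several genes of cell division moved the other way in the same libraries. Of 10 division genes, 5 rose with FSH21 at 10 ng/ml (Cdk1, Top2a, Tpx2, Ccna2 and Mki67). With FSH24 at 10 ng/ml, 4 rose (Top2a, Tpx2, Ccna2 and Mki67) and 1 fell (Mcm5). Their summed level was 1773 to 2049 CPM with FSH21 and 1703 to 2170 CPM with FSH24, against 1452 to 1552 CPM untreated. Mki67 and Top2a held most of that gap. The replication genes Pcna, Mcm2, Mcm3 and Mcm5 had lower means than untreated libraries with both forms, of which Mcm5 with FSH24 passed the test. Mcm3 averaged 82.9 CPM with FSH21 and 76.4 CPM with FSH24, against 91.5 CPM untreated. Of 12 oocyte markers, 0 were called with either form at 10 ng/ml, with medians of -0.14 (FSH21) and -0.17 (FSH24). Their summed level was 5193 to 5889 CPM with FSH21 and 5224 to 5594 CPM with FSH24, against 5935 to 6247 CPM in untreated libraries 2, 3 and 4. Untreated libraries 1, 5 and 6 had oocyte sums of 4867 to 5782 CPM, so libraries 2, 3 and 4 stood above the FSH groups and above the other untreated set. No defining oocyte marker was at 0.

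Of 10 granulosa markers, 3 rose (Kitl, Gata4 and Foxl2) and 1 fell (Fst) with each form at 10 ng/ml. Their summed level was 8076 to 8705 CPM with FSH21 and 7632 to 8300 CPM with FSH24, against 7061 to 8545 CPM untreated, which overlaps both. Of 10 theca and stroma markers, only Cyp17a1 was called, higher with both forms, at means of 4.88 and 4.55 CPM against 1.04 CPM untreated. The median log2 fold change of the 10 was below 0, at -0.25 (FSH21) and -0.13 (FSH24). Their sums were 3025 to 4201 CPM with FSH21 and 3243 to 4658 CPM with FSH24, against 3245 to 5295 CPM untreated. Of 5 endothelial markers none was called, with sums of 66.3 to 85.8 CPM and 71.1 to 82.8 CPM, against 66.5 to 101 CPM. Immune markers summed to at most 4.89 CPM in any library. Of the surface epithelium markers Lgals7 rose with both forms, and they summed to 3.3 to 4.58 CPM with FSH21 and 3.66 to 5.84 CPM with FSH24, against 1.45 to 3.18 CPM untreated. That gap was held by Lgals7, with means of 3.29 CPM (FSH21) and 3.45 CPM (FSH24), against 1.23 CPM untreated. The median log2 fold change of the surface epithelium markers tested was -0.16 with FSH21 and 0.11 with FSH24. At 1 ng/ml FSH24 library 6 stood apart, at 37.2 CPM of these markers against 1.91 and 3.11 CPM in FSH24 libraries 1 and 5. Its granulosa sum, 6529 CPM, was the lowest of the 18 libraries. FSH21 library 6 at 1 ng/ml had 9.75 CPM of surface epithelium markers. At 10 ng/ml the mitochondrial genome took 1.74% to 2.11% of counts with FSH21 and 1.65% to 2.09% with FSH24, against 1.9% to 2.26% untreated. The part of these markers in the fall of the ribosome biogenesis genes was not tested.

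Of the 40 members, 7 carry small nucleolar RNA genes inside their own gene body (Ncl, Nop56, Nop58, Dkc1, Wdr43, Gnl3 and Ppan), which is 17.5%, against 230 of the 15033 protein-coding genes tested, or 1.53%. With FSH21 at 10 ng/ml, 6 of these 7 hosts were called lower (85.7%) and 13 of the 33 other members were (39.4%). With FSH24 they were 4 of 7 hosts (57.1%) and 12 of 33 others (36.4%). The medians were close: -0.26 in hosts and -0.24 in other members with FSH21, and -0.24 and -0.23 with FSH24. Among all 230 hosts, 53 were called lower with FSH21 (23%) and 48 with FSH24 (20.9%), against 4.21% and 3.3% of all genes tested. The 230 are protein-coding genes only and include the 7 members, while the shares beside them cover all genes tested, coding or not. Exons of 17 members overlap a gene on the opposite strand, among them Polr1a, Mybbp1a, Gnl3, Wdr12 and Rrp1b, and without a stated use of strand in counting, reads of such a pair cannot be told apart.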

How the data were processed

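Messenger RNA libraries were made from 50 ng of total RNA with a NuGEN (Tecan) kit, per the labels' protocols, for 18 libraries sequenced on 4 lanes each. The values deposited by the authors are expected counts per gene, with lanes merged; that they are estimated counts follows from the values, 33.9% of the non-zero ones not being whole. STAR 2.7 and the build mm10 are named in the submitters' processing notes. The annotation, the counter's version and the use of strand are not given in the sources used here. Counts were rounded, filtered (filterByExpr, minimum count 10), scaled by TMM and fitted over all 6 groups in 1 model with edgeR 4.0.16 (glmQLFit and glmQLFTest, R 4.3.3), with Benjamini-Hochberg adjustment over 18727 genes. The biological coefficient of variation was 0.135. Of the 56691 identifiers, 52073 were found in GENCODE M21 (GRCm38), the source of positions, counted from 1. The procedure was tested on simulated data with the same spread for every gene, set below the fitted one, and no link between same-numbered libraries. That test does not give error rates for the present libraries. The members, lists, motifs and named genes were chosen with earlier results of these data known. In each role, up to 4 called members with the smallest p are given in full, and of the wider list up to 4 with the largest change. Alternatives were 2 other scalings, DESeq2 1.42.0, no count filter, a replicate block, only the groups compared, and leaving out each library. Replicate libraries of a group differed by 8.62 to 22.7 times the counting noise, so none was a duplicate.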

Additional observations from a re-analysis of the deposited data

Results flagged for a closer look

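The effect of FSH24 against untreated libraries differed between 10 and 1 ng/ml, by the test of that difference, in 5 genes of ribosome biogenesis. They are 2 of the 40 members (5%) and 3 of the 126 other genes (2.38%), against 1.24% of all genes tested called lower and 1.21% called higher. The difference in log2 fold change was -0.65 for Npm1, -0.34 for Nat10, -0.54 for Polr1d (a subunit shared by RNA polymerases I and III), -0.58 for Nsa2 and -0.51 for Nop53. Nsa2 and Nop53 act in large subunit assembly. At 1 ng/ml of FSH24 the log2 fold changes were 0.11 for Npm1, -0.05 for Nat10, 0.18 for Polr1d, 0.23 for Nsa2 and 0.08 for Nop53, and none of these was called. At 10 ng/ml they were -0.54, -0.39, -0.36, -0.35 and -0.43, and all were called. Dose goes together with library number in the treated groups, and each dose has untreated libraries of its own numbers.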

How the results depend on the processing

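No member was called higher at 10 ng/ml in any fit run, and the fall kept its direction in every called member. With FSH21 at 10 ng/ml, 22 (DESeq2 size factors), 25 (upper-quartile scaling), 25 (DESeq2), 21 (no count filter) and 20 members (only the groups compared) were called lower in place of 19. Over all genes, 854, 970, 1015, 724 and 727 were called lower in these fits, in place of 789. With FSH24 at 10 ng/ml the member counts were 18, 21, 23, 16 and 11 in place of 16. Over all genes they were 657, 724, 812, 567 and 472, in place of 618. These fits tested 18727 genes, except 36282 without the filter. With only the groups compared they tested 17353 (FSH21) and 17293 (FSH24). Leaving out 1 library gave 11 to 19 calls for FSH21 and 7 to 18 for FSH24. For FSH21 at 1 ng/ml, 1 (upper-quartile), 2 (DESeq2) and 2 (no filter) were called in place of 0. Over all genes, 10, 42 and 23 were called lower in these fits, in place of 7. For FSH21 over FSH24 at 1 ng/ml DESeq2 called 1, against 112 lower and 78 higher over all genes. The dose difference of FSH21 gave 1 call with DESeq2, 1 without filter and 0 to 1 without 1 library, and that of FSH24 gave 6 with DESeq2, 1 without filter, 1 with only the groups compared and 1 to 3 without 1 library, in place of 2. Over all genes, that of FSH21 gave 86 lower and 73 higher with DESeq2, in place of 32 and 19. Without filter it gave 55 and 47. That of FSH24 gave 387 lower and 437 higher with DESeq2, in place of 232 and 226. Without filter it gave 243 and 212, and with only the groups compared 207 and 110. Same-numbered libraries correlated at 0.0496 to 0.235 in their deviations from group means, 12 of 18 over 0.1, and other pairs at -0.173 to 0.0488, and each library correlated best with its own number, which is a hint from the data and not from the design. With the replicate block, 27 and 22 members were called lower with FSH21 and FSH24 at 10 ng/ml and 3 with FSH21 at 1 ng/ml. The dose differences of FSH21 and FSH24 then gave 1 and 7 called members. Calls over all 18727 genes rose as well, to 1240 and 1045 lower at 10 ng/ml and 78 lower with FSH21 at 1 ng/ml. In the dose differences they were 113 lower and 116 higher for FSH21 and 503 lower and 677 higher for FSH24. Only 3 uncalled members near 0 changed sign. Without 1 library, Bop1 ran from -0.076 to 0.0066 and Utp20 from -0.11 to 0.076 with FSH21 at 10 ng/ml. With FSH24 Bop1 ran from -0.07 to 0.1, Heatr1 from -0.095 to 0.024 and Utp20 from -0.064 to 0.12, and Bop1 was -0.0014 with upper-quartile scaling. The cause was not tested.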
